A study of Homo sapiens with 6 samples.

Results

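The stress effectors FGF21, GDF15, INHBE, DDIT4, SESN2, TRIB3, CHAC1, NUPR1, VLDLR and ASNS are 10 of the 56303 gene symbols in the count table and 10 of the 18243 symbols with enough counts to be tested. The genes were chosen from a list of named stress genes with their values in this same contrast known, so their group differences are described here without a test and support nothing beyond themselves. The libraries came from SW480, a human colorectal cancer cell line, with 3 libraries of cells carrying a nonsilencing hairpin (shCtrl, labelled WT) and 3 of cells carrying a hairpin against the splicing factor RBM39 (shRBM39, labelled RBM39 knockdown). Both hairpins were delivered by lentivirus, and the cells were kept as stable clonal lines under puromycin. How many clones or hairpin sequences stand behind the 3 libraries of a group is not given in the sources used here, and a clone effect cannot be told apart from the knockdown. The study asked how RBM39 shapes alternative splicing in colorectal cancer cells.

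Cells that run short of amino acids, or that accumulate unfolded protein in the endoplasmic reticulum (ER), phosphorylate the translation factor eIF2α through one of a small set of kinases. General translation then slows while the transcription factor ATF4 is translated more, and ATF4 with its partners binds composite C/EBP-ATF elements in front of its target genes. The effectors described here are among the best known outputs of that pathway: hormones released from stressed cells (FGF21, GDF15, INHBE), brakes on growth signalling (DDIT4, SESN2, TRIB3), an enzyme that degrades glutathione (CHAC1), a small chromatin protein (NUPR1), a lipoprotein receptor (VLDLR) and asparagine synthetase (ASNS).

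The promoters are shown because the ATF4 element is the feature these genes are known for. RefSeq (GRCh38.p14) gave a window of 300 bases, 250 before and 50 after the start, for 8 of the 10 genes, and the search covered both strands. INHBE and NUPR1 had no entry. The pattern TGATGNAAN, the core of the composite element, was found in the windows of 3 of the 8 genes and in 4.45% of the 27305 genes in the promoter table. The upstream 250 bases of these 3 windows are given in the direction of the gene, with the match in capitals. They are FGF21 at chr19:48755274-48755523 (plus strand), CHAC1 at chr15:40953221-40953470 (plus strand) and the first of the pair of ASNS windows at chr7:97872409-97872658 (minus strand).
FGF21: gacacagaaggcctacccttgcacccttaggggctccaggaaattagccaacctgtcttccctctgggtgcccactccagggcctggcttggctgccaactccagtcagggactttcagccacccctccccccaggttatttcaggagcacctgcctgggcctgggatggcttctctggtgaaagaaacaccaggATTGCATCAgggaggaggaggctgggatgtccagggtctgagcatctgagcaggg
CHAC1: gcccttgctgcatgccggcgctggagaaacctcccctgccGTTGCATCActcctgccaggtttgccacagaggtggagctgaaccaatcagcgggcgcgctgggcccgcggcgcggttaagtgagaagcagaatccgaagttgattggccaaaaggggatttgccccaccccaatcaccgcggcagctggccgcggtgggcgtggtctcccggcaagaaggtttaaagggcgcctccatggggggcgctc
ASNS: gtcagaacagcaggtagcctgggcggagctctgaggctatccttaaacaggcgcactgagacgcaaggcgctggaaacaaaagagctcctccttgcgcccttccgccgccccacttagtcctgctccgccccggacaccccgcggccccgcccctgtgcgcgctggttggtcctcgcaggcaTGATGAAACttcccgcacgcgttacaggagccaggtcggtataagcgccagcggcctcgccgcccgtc

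The FGF21 match reads ATTGCATCA in the direction of the gene and TGATGCAAT on the opposite strand, and it begins 55 bases upstream of the start. FGF21 was the only one of the 8 genes with the exact string TGATGCAAT, which is also a match to TGATGNAAN and which occurred in 0.293% of the genes in the table. In CHAC1 the match lies on the opposite strand and begins 210 bases upstream, and in ASNS on the gene's own strand 68 bases upstream. The full cAMP-type element TGACGTCA was in none of the 8 genes and in 2.25% of all, and the ER stress element (CCAAT and CCACG 9 bases apart) was in none of the 8 and in 0.0916% of all. These are matches of letters in a short window, not measured binding sites.

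RBM39 itself, at chr20:35703609-35742312 (GRCh38, as for all gene positions here), stood at 441, 448 and 435 CPM (counts scaled to library size, here with TMM factors) in shCtrl and at 266, 276 and 292 CPM in shRBM39. The groups did not overlap, and the knockdown left 63.0% of the control level (log2 fold change −0.67 ± 0.04, SE, n = 3 per group, edgeR adjusted p = 1.24e-16). The knockdown was partial at the RNA level. The p-values here and below measure only the spread between these libraries, since the study names 3 replicate experiments per group but the labels tie no library to a culture of its own. Each library held between 18042924 and 20428901 counts. Of the 18243 tested genes 10790 (59.1%) were called at an adjusted p under 0.05, 29.2% higher and 29.9% lower in shRBM39, and for 32.3% all 3 shRBM39 values lay below all 3 shCtrl values. Of 12 colon epithelium markers, KRT20 and CDX1 lay below 1 CPM on average. Of the 11 tested, 4 rose and 5 fell. Those that rose include KRT20 (0.310 ± 0.209 CPM in shCtrl against 1.12 ± 0.292 CPM in shRBM39, SD) and MUC2 (1.52 ± 0.460 against 2.39 ± 0.570 CPM), both low. Those that fell include the intestinal transcription factor CDX2 (21.7 ± 0.616 CPM against 4.95 ± 0.529 CPM, SD). The summed level of this list was 11832.6 to 12657.8 CPM in shCtrl and 14873.8 to 15449.0 CPM in shRBM39. Of 12 markers of other cell types, PTPRC and INS were at 0 counts everywhere and 6 were below 1 CPM, but 3 of the 6 tested rose (PECAM1, VWF and COL1A1), and the summed level of the list was 28.3 to 28.5 CPM in shCtrl and 34.95 to 40.02 CPM in shRBM39. The part of these marker shifts in the results below was not tested. In bulk RNA, fewer cells expressing a gene and less RNA per cell cannot be told apart.

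All 10 effectors were lower in shRBM39, and for none of them did the groups overlap. Mean levels in shRBM39 were between 18.4% and 67.5% of shCtrl, and 8 of the 10 genes were at least 2-fold lower, where 4.16% of tested genes were called and at least 2-fold lower. Because the genes were chosen with this contrast known, none of these counts says that the effectors differ from other genes. Their median log2 fold change was −1.90, beside −0.01 over all tested genes. DDIT4 alone made up 49.4% of the summed effector CPM in shCtrl, and the sum over the 10 genes was 757, 781 and 737 CPM in shCtrl against 174, 248 and 213 CPM in shRBM39.

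**Figure D1:**
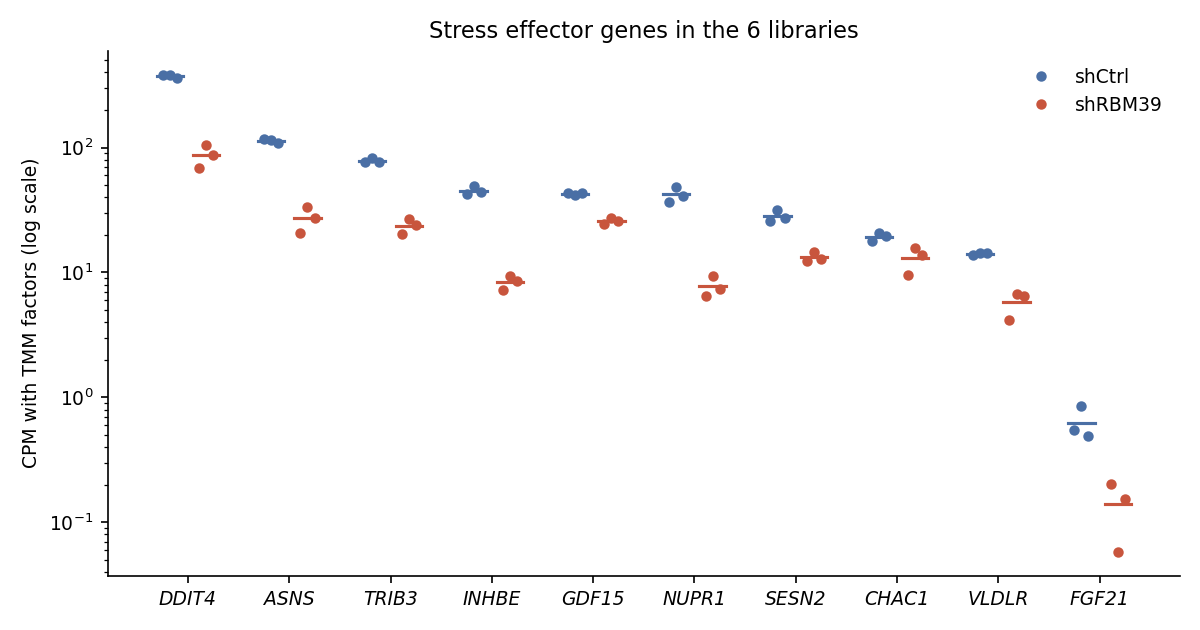
CPM with TMM factors (log axis) of the 10 stress effectors in the 3 shCtrl (blue) and 3 shRBM39 (red) libraries, with points for libraries and bars for group means. In every gene the red points lie below the blue ones, with the widest relative spread in FGF21, which had 39 counts in all 3 shCtrl libraries and 8 in all 3 shRBM39 libraries.

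The 3 secreted factors differed widely in level and in how much of it was left. INHBE (chr12:57452323-57459280, plus strand) encodes the βE subunit of activins and inhibins, best known as a hepatokine. It stood at 42.1, 49.6 and 43.9 CPM in shCtrl and at 7.25, 9.30 and 8.47 CPM in shRBM39, so 18.5% remained (log2 fold change −2.44 ± 0.08, SE). The lowest control library lay far above the highest knockdown library. GDF15 (chr19:18374731-18389176, plus strand), a distant TGF-β relative that signals to the hindbrain, was at 43.0, 42.1 and 43.0 CPM in shCtrl, nearly the same control level as INHBE, and at 24.3, 27.2 and 25.7 CPM in shRBM39. This left 60.3% (−0.73 ± 0.05 on the log2 scale), so 2 hormones with near-equal CPM in shCtrl stood apart in shRBM39, at 25.7 ± 1.45 and 8.34 ± 1.03 CPM (SD, n = 3).

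FGF21 (chr19:48755559-48758330, plus strand), the endocrine fibroblast growth factor of fasting and amino acid shortage, was barely expressed. Its raw counts were 11, 18 and 10 in shCtrl and 4, 1 and 3 in shRBM39, and the gene passed the filter on low counts only through shCtrl. The groups still did not overlap. Pooled, 39 counts against 8 left 22.5% of the control rate after library scaling, with an exact 95% interval of 9.09% to 48.9% that covers counting error only. The fitted log2 fold change of −2.10 ± 0.48 had the largest standard error of the 10 genes, and it moved between −2.46 without shRBM39 replicate 1 and −1.77 without shRBM39 replicate 2.

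Among the growth brakes, DDIT4 (REDD1, chr10:72273920-72276036, plus strand), which restrains mTORC1 through the TSC complex, had the highest level per length of all 10 effectors. It stood at 383, 378 and 362 CPM in shCtrl and at 68.4, 105 and 87.5 CPM in shRBM39, or 23.3% of control (−2.11 ± 0.07). Of its 2058 exon bases, 847 are shared with RP11-442H21.2 on the opposite strand, whose counts were between 69.7% and 71.2% of those of DDIT4 in every library. The kit was stranded but the strand setting of the counting was not stated, so the reads of this pair cannot be told apart. SESN2 (chr1:28259527-28282491, plus strand), a leucine sensor that holds mTORC1 back through GATOR2, was at 25.6, 31.7 and 27.2 CPM in shCtrl and at 12.4, 14.5 and 12.8 CPM in shRBM39 (46.9%, −1.10 ± 0.08). Its knockdown libraries lay close together and well under the controls. TRIB3 (chr20:362835-397559, plus strand), a pseudokinase that binds AKT and also dampens ATF4, was at 76.6, 82.2 and 76.0 CPM against 20.3, 26.9 and 24.0 CPM (30.3%, −1.73 ± 0.06).

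The remaining effectors act on metabolism, chromatin and lipid uptake. ASNS (chr7:97852118-97872542, minus strand) makes asparagine from aspartate and is the classic amino acid response gene. It stood at 118, 114 and 109 CPM in shCtrl and at 20.8, 33.2 and 27.2 CPM in shRBM39, leaving 23.8% (−2.08 ± 0.07). NUPR1 (chr16:28532708-28539174, minus strand), a small disordered protein induced by many stresses, was at 36.8, 48.2 and 41.2 CPM in shCtrl and at 6.43, 9.41 and 7.38 CPM in shRBM39. The 18.4% left (−2.45 ± 0.10) was close to that of INHBE, with the same order of the 3 knockdown libraries. VLDLR (chr9:2621834-2660053, plus strand), the very low density lipoprotein and reelin receptor, was at 13.8, 14.2 and 14.3 CPM in shCtrl and at 4.13, 6.68 and 6.45 CPM in shRBM39 (40.7%, −1.30 ± 0.11). VLDLR shares 738 of its 9339 exon bases with the opposite-strand VLDLR-AS1, whose counts were 136, 137 and 112 in shCtrl and 23, 23 and 40 in shRBM39, again with the counting strand unknown.

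CHAC1 (chr15:40952962-40956519, plus strand) had the smallest fold difference of the 10 in mean CPM. It stood at 17.9, 20.6 and 19.4 CPM in shCtrl and at 9.60, 15.6 and 13.9 CPM in shRBM39, leaving 67.5% (−0.58 ± 0.10). The lowest control library exceeded the highest knockdown library by only 1.15-fold. Without shRBM39 replicate 1 the log2 fold change was −0.39, and without shRBM39 replicate 2 it was −0.71, so 1 library sets much of its size.

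The knockdown libraries kept a common order across the effectors. Replicate 1 of shRBM39 was the lowest of its group for 9 of the 10 genes and replicate 2 the highest for 9, where 35% and 34.8% of all tested genes had that place, and FGF21, with its few counts, was the exception in both. In shCtrl, replicate 2 was the highest for 6 of the 10 genes. Leaving out shRBM39 replicate 1 moved the median log2 fold change of the effectors from −1.90 to −1.77, and all 10 stayed below 0. This shift was not particular to that library. The median was −1.80 without shRBM39 replicate 2 and −1.76 without shCtrl replicate 2. The coefficient of variation was larger in shRBM39 than in shCtrl for 9 of the 10 genes, and 53.7% of tested genes shared that direction.

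**Figure D2:**
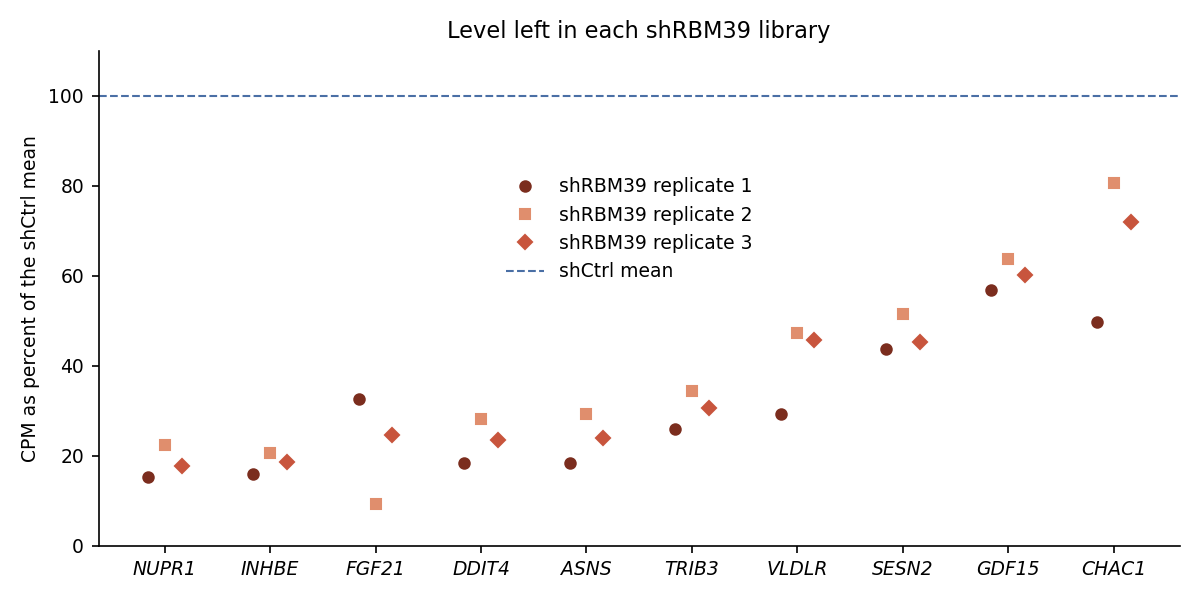
CPM of each effector in each shRBM39 library as a percent of the mean of the 3 shCtrl libraries (dashed line at 100), with genes ordered by their mean share. Replicate 1 (circles) is lowest in every gene but FGF21, and shares rise from 18.4% in NUPR1 to 67.5% in CHAC1 on average.

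On a scale per length, reads per exon length and library size (RPKM), the levels in shCtrl ran in the order DDIT4 (190 RPKM), ASNS (26.6), TRIB3 (23.8), GDF15 (21.3), INHBE (15.6), CHAC1 (9.78), SESN2 (8.51), NUPR1 (7.73), VLDLR (1.58) and FGF21 (0.4999 RPKM). Neighbours in this order overlapped between libraries only for CHAC1 with SESN2 and SESN2 with NUPR1. In shRBM39, DDIT4 stayed first at 40.5 RPKM, but GDF15 was second at 11.8 RPKM, followed by TRIB3 at 6.61 RPKM and CHAC1 at 6.05 RPKM. ASNS came next at 5.81 RPKM and NUPR1 stood at 1.30 RPKM. Among all tested genes ranked by RPKM, ASNS went from percentile 89.9 to 65.6, INHBE from 83.5 to 46.4, NUPR1 from 70.1 to 30.6 and DDIT4 from 98.7 to 93.1. Ranks near the top of the scale are compressed, and DDIT4 and ASNS kept nearly the same share of their control CPM, 23.3% and 23.8%.

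The pattern of NUPR1, which with INHBE had the largest fitted changes among the effectors on the CPM scale (−2.45 and −2.44, less than 1 SE apart), was compared with that of 12058 genes at a mean of at least 5 CPM, by the distance between centred log2 CPM values over the 6 libraries. The nearest gene was another effector, INHBE (distance 0.192), and DDIT4 was the fourth nearest (0.444), followed by its antisense partner RP11-442H21.2 (0.463). Between INHBE and DDIT4 lay PRSS2, a trypsinogen with near-identical paralogs that could share its reads (453 against 97.1 CPM, distance 0.418), and ASS1, the argininosuccinate synthase of arginine synthesis (355 against 60.4 CPM, distance 0.427). With 2 groups of 3 libraries, a likeness of this kind rests largely on the group difference.

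The lists of genes that follow were also chosen with earlier results of these data known, so their counts support nothing beyond themselves. Over all tested genes 59.1% were called, 29.2% higher and 29.9% lower in shRBM39, and the list counts stand beside these shares. Upstream of the effectors, the genes of the ATF4 axis moved in both directions. Of 12 tested, 7 fell, 3 rose and 2 were not called, with a median log2 fold change of −0.33, and with library totals 7 were lower and 1 higher. ATF4 mRNA fell from 918 ± 15.96 to 684 ± 41.2 CPM (SD, log2 fold change −0.43 ± 0.04, adjusted p = 2.88e-11). Its partners and relatives fell as well: DDIT3 (CHOP) by 1.22, ATF3 by 1.16, CEBPB by 0.99, CEBPG by 0.79 and ATF5 by 0.24 on the log2 scale, with adjusted p of 1.45e-16 for DDIT3 and 0.000102 for ATF5. PPP1R15A (GADD34), the stress-induced subunit that recruits phosphatase to eIF2α, fell by 0.66, whereas its constitutive counterpart PPP1R15B rose by 0.21 (adjusted p = 0.00383), a call that was lost with library totals as the scale.

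None of the 4 eIF2α kinases was called lower in shRBM39. EIF2AK2 (PKR), the sensor of double-stranded RNA, rose from 47.5 ± 1.99 to 64.9 ± 2.10 CPM (0.45 ± 0.05 on the log2 scale, adjusted p = 2.86e-10). EIF2AK1 (HRI), the heme-regulated kinase, rose by 0.09 (adjusted p = 0.0294). This call was lost in 6 of 15 alternative fits, and its sign turned in 3, library totals among them. EIF2AK3 (PERK) stood at 19.6 ± 1.06 and 19.4 ± 1.27 CPM (adjusted p = 0.900), and EIF2AK4 (GCN2), the sensor of uncharged tRNA, at 67.0 ± 1.36 and 71.5 ± 1.09 CPM (adjusted p = 0.0619). Translation and phosphorylation, through which this pathway is known to act, are not seen in RNA counts.

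Other ATF4 targets, of amino acid synthesis, transport and tRNA charging, fell in 20 of 22 tested genes, with 2 not called (median −0.47). Over all tested genes 29.9% were called lower, and this list too was chosen with earlier results known. The largest changes were in SLC7A11, the cystine importer (21.7 ± 1.82 to 6.41 ± 1.23 CPM, −1.77 ± 0.10, adjusted p = 3.27e-17), and ALDH1L2, a mitochondrial folate enzyme (5.31 ± 0.630 to 1.58 ± 0.250 CPM, −1.76 ± 0.17, adjusted p = 3.99e-11). PCK2, the mitochondrial phosphoenolpyruvate carboxykinase, fell from 88.6 ± 0.624 to 29.3 ± 3.32 CPM (adjusted p = 7.5e-23). STC2, a secreted stanniocalcin, fell from 151 ± 11.6 to 60.3 ± 3.41 CPM (adjusted p = 8.33e-22). The folate enzyme MTHFD2 (112 ± 4.11 and 106 ± 8.61 CPM) and the proline enzyme ALDH18A1 (52.3 ± 0.775 and 55.1 ± 0.626 CPM) were not called.

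**Figure D3:**
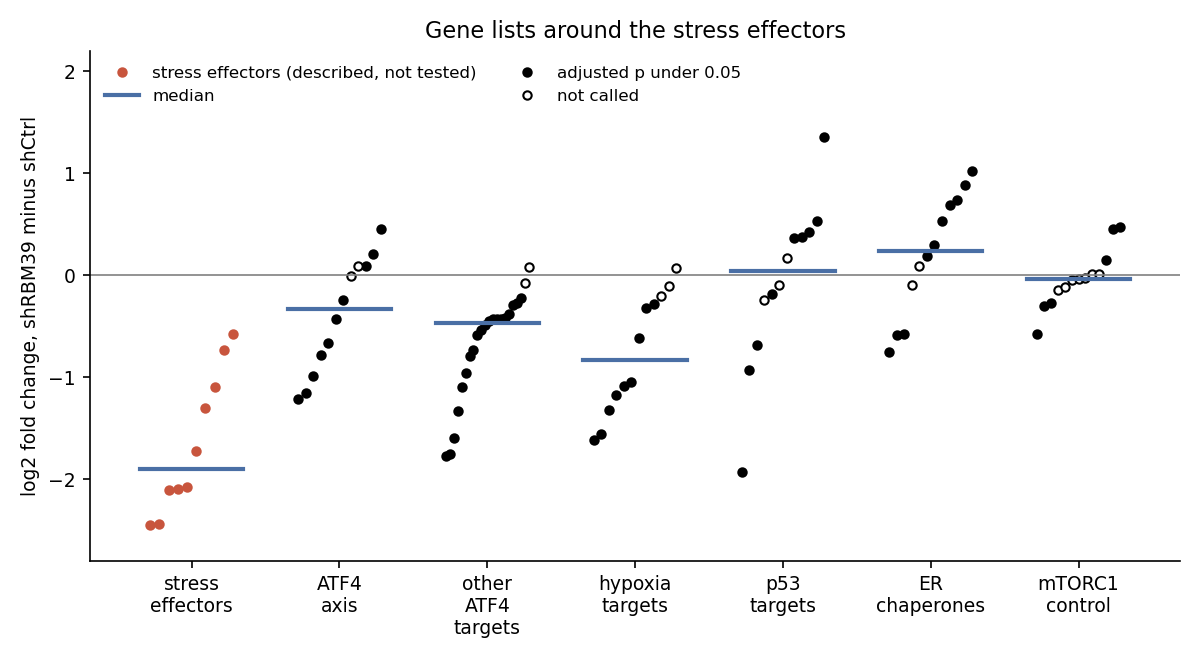
Log2 fold change (shRBM39 minus shCtrl) of every tested gene in 7 lists, with filled points for genes called at an adjusted p under 0.05, open points for genes not called, and blue bars for list medians. The effectors (red, described and not tested) have a median of −1.90, other ATF4 targets of −0.47 and hypoxia targets of −0.83. The list labelled ER chaperones, which also holds other genes of the ER folding response, has a median of 0.24.

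Several effectors are also targets of other stress programmes. Of 12 genes of the ER folding response, 7 rose and 3 fell (median 0.24), where 29.2% of all tested genes rose and 29.9% fell. The list is labelled ER chaperones, but the 3 that fell, XBP1, HERPUD1 and EDEM1, are not chaperones. HSPA5 (BiP), the main ER chaperone, rose from 385 ± 34.1 to 709 ± 34.6 CPM (adjusted p = 7.91e-18), CRELD2 rose by 1.02 and the disulfide isomerase PDIA4 by 0.74 on the log2 scale, while EDEM1, which targets misfolded glycoproteins for degradation, fell by 0.76. HYOU1 (305 ± 20.1 and 325 ± 16.3 CPM) and DNAJB9 (8.54 ± 0.940 and 7.97 ± 0.505 CPM) were not called.

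Hypoxia targets, a programme that also contains DDIT4, fell in 9 of 12 tested genes with 3 not called (median −0.83). Over all tested genes 29.9% were called lower, and the list was chosen with earlier results known. VEGFA, the angiogenic growth factor, fell from 234 ± 9.16 to 79.7 ± 7.45 CPM (−1.56 ± 0.05, adjusted p = 6.15e-24), the prolyl hydroxylase EGLN3 by 1.62, NDRG1 by 1.32 and the pyruvate dehydrogenase kinase PDK1 by 1.18 on the log2 scale. KDM3A (57.4 ± 3.20 and 53.3 ± 3.39 CPM) and ADM (3.29 ± 0.291 and 2.83 ± 0.341 CPM) were not called.

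For p53 targets, a programme to which GDF15 and the sestrins belong, 5 of 12 rose, 4 fell and 3 were not called (median 0.04), while 4 were higher and 6 lower with library totals. The 33.3% that fell lay near the 29.9% of all tested genes, of which 29.2% rose. BBC3 (PUMA) fell by 1.93, TNFRSF10B (DR5), itself also a CHOP target, by 0.93 and GADD45A by 0.69 on the log2 scale, whereas FAS rose by 1.36 (adjusted p = 5.18e-08). FDXR (20.4 ± 1.65 and 19.0 ± 0.999 CPM) and TP53I3 (8.16 ± 0.795 and 9.21 ± 0.481 CPM) were not called.

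DDIT4 and SESN2 act on mTORC1. Of 13 tested control genes of that kinase complex, 3 rose, 3 fell and 7 were not called (median −0.04), a split that was 2 higher and 6 lower with library totals as the scale and 2 higher and 5 lower on both log2 RPKM scales. The 23.1% that fell was below the 29.9% of all tested genes, of which 29.2% rose, so these counts mark nothing particular to the list. MTOR rose from 75.8 ± 2.59 to 104 ± 3.79 CPM and DEPDC5, a GATOR1 subunit, by 0.47 on the log2 scale, while WDR59, a GATOR2 subunit, fell by 0.57 and the GTPase RHEB by 0.30. TSC2 (82.9 ± 6.06 and 80.1 ± 2.86 CPM) and the GATOR1 subunit NPRL3 (50.7 ± 0.944 and 51.0 ± 0.910 CPM) were not called.

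The closest paralogs of the effectors moved in both directions. Of 15 listed, 11 were tested, of which 4 rose, 4 fell and 3 were not called (median 0.04). The 36.4% that fell lay near the 29.9% of all tested genes, of which 29.2% rose. With library totals 1 was higher and 5 were lower, and DDIT4L and NUPR2 had 0 counts in all 6 libraries. CHAC2, the constitutive relative of CHAC1, rose from 8.06 ± 0.752 to 17.7 ± 1.07 CPM (1.13 ± 0.09, adjusted p = 1.62e-13), while CHAC1 was lower. TRIB1 (29.4 ± 1.33 and 32.1 ± 1.20 CPM) was not called and TRIB2 rose by 0.20 (adjusted p = 0.0225), a call that was lost with DESeq2 and in 4 of the 6 fits that left out a library. LRP8, the other reelin receptor and a close relative of VLDLR, rose by 0.20 on the log2 scale, and the call was lost with library totals.

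In other families a paralog fell too. INHBC, which lies 1494 bases upstream of INHBE on the same strand at chr12:57434760-57450828, fell from 4.42 ± 0.315 to 1.09 ± 0.505 CPM (−2.04 ± 0.21, adjusted p = 2.01e-10). INHA, the inhibin α subunit, fell from 1.68 ± 0.342 to 0.641 ± 0.0807 CPM (adjusted p = 4e-05), while INHBB, the most abundant of the family at 206 ± 10.1 and 210 ± 8.22 CPM, was not called. SESN3 fell from 86.5 ± 3.29 to 45.2 ± 0.978 CPM (−0.94 ± 0.05, adjusted p = 1.24e-18), whereas SESN1 (6.60 ± 0.0460 and 6.74 ± 0.560 CPM) was not called. FGF19, the endocrine relative of FGF21 that the intestine releases in response to bile acids, fell from 64.8 ± 1.82 to 42.0 ± 0.938 CPM (−0.62 ± 0.05, adjusted p = 8.4e-14).

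**Figure D4:**
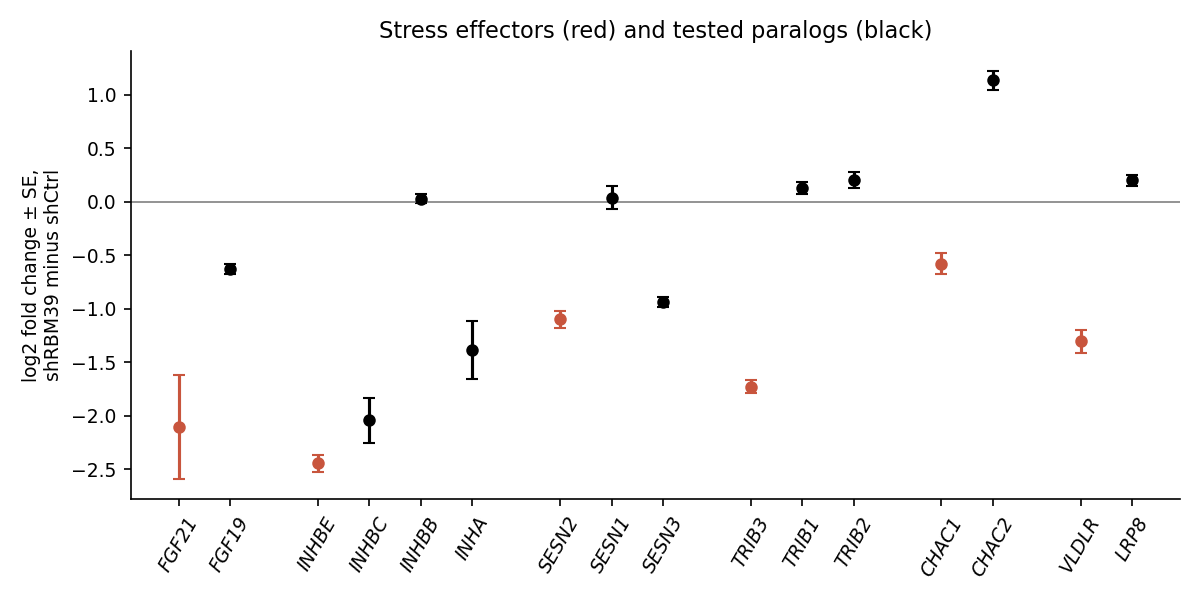
Log2 fold change (shRBM39 minus shCtrl) with its standard error for 6 effectors (red) and 10 tested paralogs (black), grouped by family. INHBC lies at −2.04 beside INHBE at −2.44, while CHAC2 lies at 1.13 against −0.58 for CHAC1.

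Genes on the list of receptors and co-receptors were mostly not called, and some had almost no counts while others were well expressed. Of 13 genes that receive or turn over these signals, 10 were tested, 2 fell and 8 were not called (median −0.09). GFRAL, the receptor of GDF15, had 0 counts in all 6 libraries and its partner RET at most 1 count in any library. KLB, the co-receptor that FGF21 requires, was at 0.742 ± 0.226 and 0.448 ± 0.123 CPM and was not called. Its difference was called with library totals and without shCtrl replicate 1. FGFR1 (84.5 ± 1.31 and 80.0 ± 3.15 CPM), FGFR4 (79.5 ± 0.344 and 75.8 ± 2.85 CPM) and ACVR1B (28.6 ± 1.52 and 26.7 ± 0.900 CPM) were expressed and not called either. Each of them was called lower with upper-quartile scaling, with library totals and on both log2 RPKM scales. ACVR2B, an activin type II receptor, fell by 0.47 (adjusted p = 0.000119), and MYLIP (IDOL), a ubiquitin ligase that degrades VLDLR, fell from 3.88 ± 0.528 to 2.43 ± 0.327 CPM (adjusted p = 0.000651).

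The splicing table lists 1582 records of 1198 gene symbols, and 1 of them belongs to an effector. It is a skipped exon of VLDLR, exon 16 of 19 in the GENCODE v44 canonical transcript, at chr9:2651415-2651498 on the plus strand of GRCh38. The exon has 84 bases, is fully coding and keeps the reading frame with its 28 codons. Exon 16 is known to encode the O-linked sugar stretch that separates the long and short receptor forms. The exon is shown in capitals with 30 intronic bases on each side in lower case, where the last 2 before it are ag and the first 2 after it gt.
VLDLR exon 16: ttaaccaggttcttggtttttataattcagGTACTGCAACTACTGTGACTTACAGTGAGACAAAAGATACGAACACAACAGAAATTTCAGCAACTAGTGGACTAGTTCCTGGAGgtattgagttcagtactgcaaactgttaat

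The record rests on few reads. In group 1 of the table there were 2, 2 and 8 reads that skip the exon and 0 that include it, while group 2 had 13, 13 and 9 skipping reads and 4, 0 and 4 including reads. The listed inclusion level was 0 for all of group 1, while group 2 had values of 0.157, 0 and 0.213, so the groups overlapped at 0. Summed, 0 of 12 event reads in group 1 included the exon, with an exact 95% interval that reaches up to 26.5%. In group 2, 8 of 43 did so (18.6%, exact 95% interval 8.39% to 33.4%). Both intervals cover counting error only. The difference between the groups was not tested. The table does not say which of its groups is the knockdown, so no direction was assigned. The other 9 effectors had no listed record, and since the table holds only records past the authors' thresholds, this says nothing of events with smaller differences.

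**Figure D5:**
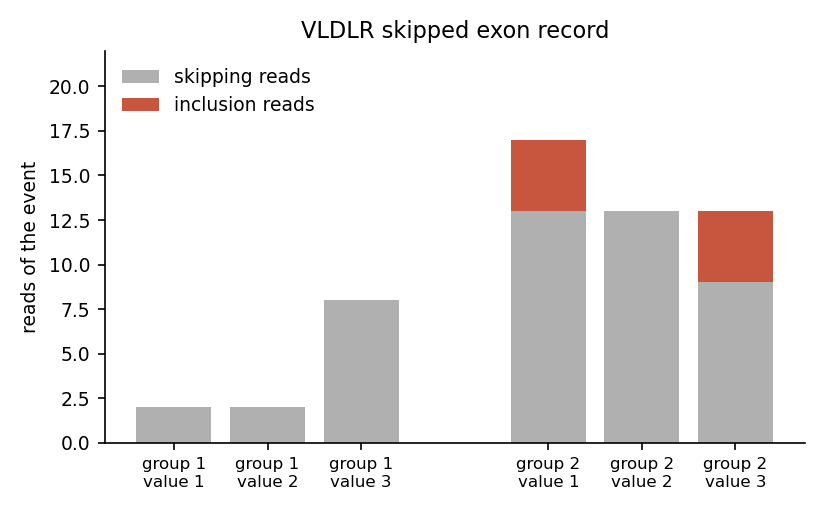
Reads that include (red) or skip (grey) exon 16 of VLDLR, for the 3 values of each group of the splicing table, whose key to the knockdown is not known. The bars hold 2 to 8 reads in group 1, all skipping, and 13 to 17 reads in group 2, of which 4, 0 and 4 include the exon.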

How the data were processed

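mRNA of SW480 cells was sequenced from stranded libraries, 3 shCtrl and 3 shRBM39, grouped and numbered by their titles. Columns named NC were taken as shCtrl because the series has no other control. Raw counts on GRCh38, 1 value per gene symbol with merged exons, were deposited by the authors, as were RPKM values made from those counts and the library totals. The submitters' processing notes name Trimmomatic 0.36, STAR 2.5.3a, featureCounts, Subread 1.5.1 and edgeR 3.12.1, without roles. Strand setting, multi-mapped reads and collapsing of molecular identifiers were not stated, which bears on overlapping and paralogous genes. The authors' rMATS table of splicing records was read for reads and inclusion levels only. Its p-values, FDR and differences, and a tally of events, were not used.

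The quasi-likelihood test of edgeR 4.0.16 in R 4.3.3 was run on the 18243 symbols that passed filterByExpr, scaled by TMM, with no term besides the hairpin. Adjusted p-values follow Benjamini and Hochberg over these symbols, with a threshold of 0.05, and TMM factors enter the CPM values. The depth of 18042924 to 20428901 counts per library sets the counting error, and intervals for pooled counts and shares are exact at 95%. The procedure was tested on simulated data. The effectors and the lists around them (ATF4 axis, other ATF4 targets, paralogs, receptors and co-receptors, mTORC1 control, ER chaperones, p53 targets, hypoxia targets, colon epithelium markers and markers of other cell types) were chosen with earlier results of these data known. The older symbols AARS, GARS and GATSL3 stand for AARS1, GARS1 and CASTOR1 in the table. Named in the text are RBM39, the effectors, the genes of the ATF4 axis, the paralogs (except 1 that is not reported here by name) and the receptors, and from each other list up to 4 called genes with the largest change and up to 2 uncalled genes with the highest level, PECAM1, VWF and COL1A1 being named after their values were seen. Likeness to NUPR1 was measured on log2(CPM + 0.5). Alternatives were DESeq2 1.42.0, other scalings and count filters, leaving out each library, a block for the replicate number, limma 3.58.1 on log2(RPKM + 1) and log2(RPKM + 0.1), a correction for GC content and length, and stricter thresholds.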

Additional observations from a re-analysis of the deposited data

How the results depend on the processing

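The effectors lay below 0 in every alternative that gave a value. Of 149 alternative values of the effectors, 140 stayed within 1 SD of the reported one, 9 moved by more and 0 reversed. This SD is not the SE of the fit. CHAC1 at −0.39 without shRBM39 replicate 1 counted as within it, beside a reported −0.58 ± 0.10 (SE). The farthest were FGF21 at −0.44 and VLDLR at −0.70 on log2(RPKM + 1), a scale that understates low genes. FGF21 gave no value with at least 10 counts in every library, and the VLDLR record gave none with at least 20 event reads. Without the length correction its mean level in group 2 was 0.181 in place of 0.123. The order by RPKM in shCtrl was unchanged with TMM factors.

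Library totals in place of TMM moved the median of all genes from −0.01 to −0.14 and the effector median to −2.03, and the calls went from 5327 higher and 5463 lower to 3775 higher and 7371 lower. On log2(RPKM + 1) they were 3530 and 6981, and on log2(RPKM + 0.1) 3535 and 6984. DESeq2 called 9081 genes in place of 10790, and leaving out 1 library gave 10138 to 10263. The paralogs had 5 calls in place of 8 on both log2 RPKM scales. The receptors had 5 calls in place of 2 with upper-quartile scaling and on both log2 RPKM scales, and 6 with library totals. The cause was not tested. Against a log2 fold change of 0.5, edgeR called 2232 genes, 5 of the ATF4 axis, 8 other ATF4 targets and 5 paralogs. It also called 5 genes of the list labelled ER chaperones and 4 p53 targets, but 0 receptors and 0 mTORC1 genes. Of the receptors and mTORC1 genes, 0 and 1 had an unadjusted p under 0.05 in that test. Both edgeR and DESeq2 called 2 and 6 of them against 0. Hypoxia targets had 6 calls against 0.5 and 8 to 11 in the other alternatives. For p53 targets the calls of CDKN1A and MDM2 were lost with DESeq2, which left 7. Over 15 alternative fits, not counting the stricter thresholds, the CDKN1A call was lost in 11 and the MDM2 call in 5.

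Same-numbered libraries of the groups did not deviate together (correlations 0.00583, −0.0477 and 0.0371), so they share only a number. With the replicate block 10810 genes were called, and the libraries did not each correlate best with their own number.

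Counts near 0 limit FGF21, KLB, RET and the VLDLR record, where few reads decide the value. Overlapping antisense transcripts limit DDIT4 and VLDLR, and the number of clones behind each group, which is not known here, limits every comparison.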
